A study of Mus musculus with 16 samples.

Results

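The genes described here are 10 regulators of Notch receptor modification and turnover, Lfng, Mfng, Rfng, Pofut1, Dtx2, Dtx4, Numb, Itch, Mib1 and Fbxw7. They were picked by symbol for their place in the pathway, with earlier results of these data known, out of 47069 genes in the count table, and all 10 were kept by the low-count filter of edgeR, which left 13211 genes for testing. Macrophages grown from bone marrow (BMMs), taken from C57BL/6 mice at 8 to 10 weeks of age, were harvested on day 7 of culture and primed overnight with IFNγ at 10 ng/mL. Before activation, the cells of the GSI group were kept overnight with DAPT at 25 μM, a γ-secretase inhibitor (GSI) that blocks the last cleavage of Notch receptors, and those of the control group with the vehicle DMSO at 0.01%. Both groups were then activated for 1 hr with Salmonella LPS at 100 ng/mL together with immune complexes of ovalbumin and rabbit IgG (LPS/ICs). Each group had 2 replicates with 4 columns of counts each. The labels do not say what the 4 columns are. They were taken here as sequencing runs of 1 library, and all statements on runs rest on that, and they were summed to 4 libraries. Unstimulated cells and cells given LPS alone were not analysed here, so all values describe activated macrophages. The labels do not say whether the replicates came from separate mice or cultures, and p-values therefore measure the spread between these libraries, which may be technical.

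Notch receptors carry O-linked sugars on their extracellular EGF-like repeats. POFUT1 adds O-fucose in the endoplasmic reticulum, and the Fringe enzymes LFNG, MFNG and RFNG extend it with N-acetylglucosamine in the Golgi, which changes how well a receptor responds to Delta-like and to Jagged ligands. Inside the cell, Deltex proteins and the ubiquitin ligase ITCH act on the traffic and degradation of the receptor, NUMB is an endocytic adaptor that antagonizes Notch, and FBXW7 recognizes the phosphorylated intracellular domain and hands it to the proteasome. MIB1 acts in the neighbouring cell, where it ubiquitinates Notch ligands so that they can be endocytosed. The comparison of GSI with DMSO asked whether the mRNAs of this machinery changed when γ-secretase was inhibited.

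In the nucleus the released Notch domain binds RBPJ, whose DNA-binding core is TGGGAA, and Lfng is a known Notch target in the embryo. Windows of 250 bases before the transcription start, from RefSeq on GRCm38, were present for 6 of the 10 genes, 10 windows in all, and were searched for TGGGAA on both strands, the other strand reading TTCCCA. The windows of Lfng, Rfng and Dtx2 are shown because Lfng and Dtx2 held the matches and Rfng, a Fringe gene of low mRNA level, held none. Capitals mark the matches, and each window is written 5′ to 3′ on the strand of its gene.
Lfng, chr5:140607091-140607340, plus strand: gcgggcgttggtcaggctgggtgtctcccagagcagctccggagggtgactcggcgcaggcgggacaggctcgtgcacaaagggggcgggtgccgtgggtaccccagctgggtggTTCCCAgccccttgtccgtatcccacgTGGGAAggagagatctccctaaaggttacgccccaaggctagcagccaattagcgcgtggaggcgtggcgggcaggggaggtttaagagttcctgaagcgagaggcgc
Rfng, chr11:120784205-120784454, minus strand: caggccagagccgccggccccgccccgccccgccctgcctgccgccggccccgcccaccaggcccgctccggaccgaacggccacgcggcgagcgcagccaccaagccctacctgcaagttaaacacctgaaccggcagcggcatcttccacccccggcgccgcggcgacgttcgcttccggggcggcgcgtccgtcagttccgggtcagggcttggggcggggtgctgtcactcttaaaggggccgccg
Dtx2, chr5:135994550-135994799, plus strand: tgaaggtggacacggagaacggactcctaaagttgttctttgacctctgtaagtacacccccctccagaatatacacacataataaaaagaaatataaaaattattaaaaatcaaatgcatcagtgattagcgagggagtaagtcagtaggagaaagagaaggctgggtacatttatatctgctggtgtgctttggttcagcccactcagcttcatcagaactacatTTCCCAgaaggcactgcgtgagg

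The Lfng window held 2 matches, on opposite strands, beginning 135 and 108 bases before the start, and the Dtx2 window held 1, beginning 23 bases before it. The windows of Rfng, Pofut1, Numb and Fbxw7 held none. Of all 32851 RefSeq windows of the same length, 21.6% held at least 1 match, so that 2 of the 10 windows is near that share. A match is a description of the letters, and no binding was measured in these cells. Mfng, Dtx4, Itch and Mib1 had no window in the table.

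In total, the DMSO libraries contained 42694655 and 56932059 counts and the GSI libraries 48483661 and 49511733. Each of the 10 genes had at least 279 counts in every library, so none of them passed the filter through a single group. Levels are given in CPM, counts scaled to a common library total and adjusted by the TMM factors of edgeR, which lay between 0.997 and 1.01. The 8 macrophage markers examined, among them Adgre1, Csf1r and Lyz2, summed to 12278 and 12484 CPM with DMSO and to 9489 and 10414 CPM with GSI, with Cd68 and Mertk higher and the other 6 lower in both GSI libraries. Lists of neutrophil, T cell, B cell and fibroblast markers summed to at most 2.79 CPM in any library, and the 10 mast cell, basophil and erythroid markers were at 0 in all 4. A list of 5 dendritic cell markers summed to 186 and 179 CPM with DMSO and to 113 and 115 CPM with GSI. Nearly all of it was Clec9a. Xcr1 had 5.02 and 4.64 CPM with DMSO and 3.77 and 3.44 CPM with GSI. Zbtb46 was at 0.202 to 0.335 CPM, Flt3 stayed at or below 0.0414 CPM and Siglech was at 0. The part that these shifts in marker levels have in the results below was not tested.

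Itch was the only gene of the 10 called, so that 1 was lower with GSI and 0 were higher at a false discovery rate (FDR) under 0.05, in the quasi-likelihood test of edgeR, adjusted after Benjamini and Hochberg over all 13211 genes. With single libraries left out, the lower count became 0 without DMSO replicate 1 (Itch, edgeR FDR = 0.0980) and the higher count 1 without GSI replicate 2 (Lfng, edgeR FDR = 0.0238). At an unadjusted p under 0.05 the count was also 1, and DESeq2 called 1 lower and 0 higher as well. Among all tested genes, 21.9% were lower and 19.0% higher at the same threshold, 40.8% in all. The study also required an absolute log2 fold change above 1.5, and 0 of the 10 genes met both conditions, against 2.91% of tested genes. The median log2 fold change of the 10 genes was 0.01 and that of all tested genes 0.01. The median of its absolute size was 0.11 for the 10 genes and 0.24 for all. These medians were not matched for expression level, and many tested genes had larger standard errors than the 10. Both GSI libraries lay on one side of both DMSO libraries for 4 of the 10 genes, Mfng, Dtx2, Itch and Mib1, against 70.6% of all tested genes. Standard errors of the log2 fold change were between 0.0722 and 0.117, and at those errors a log2 fold change of 0.18 to 0.30 was needed for a call. All 10 intervals (95%) lay between -0.48 and 0.42, so changes of the size of the fold threshold were outside them.

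**Figure D1:**
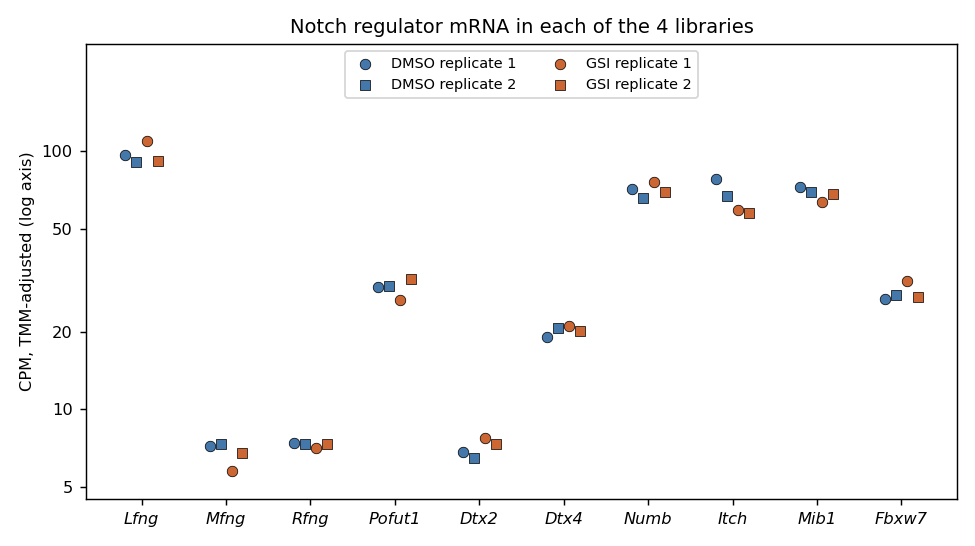
CPM (TMM-adjusted, log axis) of each of the 10 genes in the 4 libraries, with DMSO in blue, GSI in orange, circles for replicate 1 and squares for replicate 2. Lfng was between 90.4 and 109 CPM in every library and Mfng, Rfng and Dtx2 stayed below 8 CPM, and Itch is the gene whose GSI points lie clearest below its DMSO points.

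**Figure D2:**
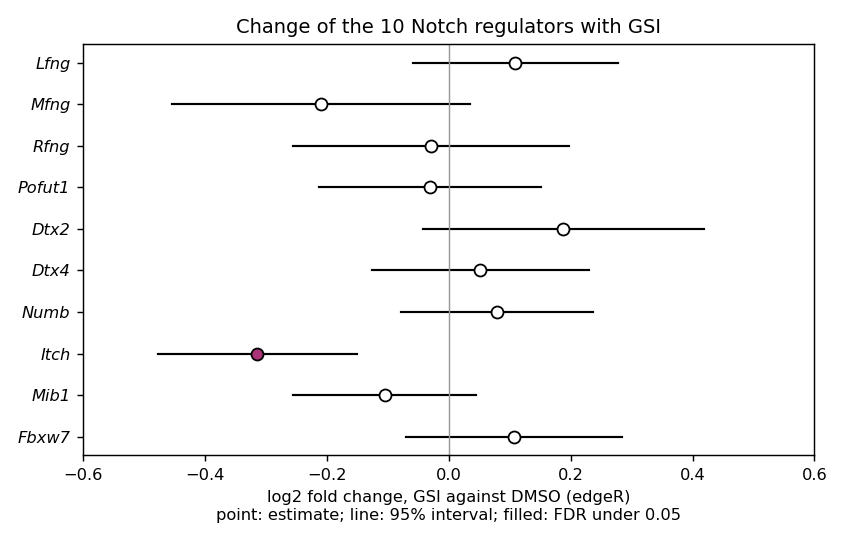
Log2 fold change of GSI against DMSO for each gene from edgeR, with 95% intervals as lines and a filled point where the FDR was under 0.05. The interval of Itch, from -0.48 to -0.15, is the only one that leaves out 0.

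Lfng (ENSMUSG00000029570), which lies on chromosome 5 of GRCm38 from 140607320 to 140615545, had the highest level among the 10 genes on either scale used here. It had 96.2 and 90.4 CPM in DMSO replicates 1 and 2 and 109 and 92.0 CPM in GSI replicates 1 and 2. The second GSI library lay between the DMSO libraries, so the groups overlapped, and only the first stood above them. This gave a log2 fold change of 0.11 (standard error 0.0806, edgeR FDR = 0.299), with a 95% interval from -0.06 to 0.28. Without GSI replicate 2 it was 0.23 with an edgeR FDR of 0.0238, and without GSI replicate 1 it was -0.02 with an edgeR FDR of 0.883, so the direction rested on a single library.

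Mfng (ENSMUSG00000018169, chromosome 15 from 78755882 to 78773475) was measured on 279 to 415 counts per library. It had 7.23 and 7.31 CPM with DMSO and 5.77 and 6.80 CPM with GSI. Both GSI libraries were below both DMSO libraries, but they differed from each other by 16.4% of their mean, against 1.19% between the DMSO libraries. The log2 fold change of -0.21 (standard error 0.117) did not pass the test, with an edgeR FDR of 0.162 and a 95% interval from -0.45 to 0.04. It ranged from -0.33 without GSI replicate 2 (edgeR FDR = 0.0599) to -0.10 without GSI replicate 1.

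Rfng (ENSMUSG00000025158, chromosome 11 from 120780746 to 120784207) was the steadiest of the Fringe genes between groups. It had 7.41 and 7.33 CPM with DMSO and 7.10 and 7.35 CPM with GSI, and the groups overlapped. Its log2 fold change was -0.03 (standard error 0.109, edgeR FDR = 0.855), with a 95% interval from -0.26 to 0.20 that still allows a moderate change at this depth.

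Compared per length, as CPM per kilobase of exon, Lfng made up 87.4% and 86.7% of the summed level of the 3 Fringe genes with DMSO and 89.9% and 87.3% with GSI. Rfng held 6.78% and 7.08% under DMSO against 5.88% and 7.02% under GSI. The share of Mfng was 5.79% and 6.19% in the DMSO libraries against 4.19% and 5.70% in the GSI libraries. Lfng was thus the predominant Fringe mRNA in every library. The level of Lfng per length was 15.1 and 14.0 times that of Mfng with DMSO, and 21.4 and 15.3 times with GSI. GSI replicate 1 set the higher end of that ratio, while GSI replicate 2 was close to DMSO replicate 1.

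Pofut1 (ENSMUSG00000046020, chromosome 2 from 153241533 to 153270247), the O-fucosyltransferase on which the Fringe enzymes depend, had 29.8 and 30.0 CPM with DMSO and 26.6 and 31.9 CPM with GSI. The GSI libraries lay on either side of the DMSO libraries. They differed by 18.2% of their mean, the widest gap between replicates among the 10 genes, whereas the DMSO libraries differed by 0.813%. For Pofut1 the log2 fold change came to -0.03 (standard error 0.0872, edgeR FDR = 0.809), with a 95% interval from -0.21 to 0.15, and it was 0.09 without GSI replicate 1.

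Of the Deltex genes, Dtx4 (ENSMUSG00000039982, chromosome 19 from 12466338 to 12501454) had 19.1 and 20.6 CPM with DMSO and 21.1 and 20.0 CPM with GSI, and the groups overlapped. Its log2 fold change was 0.05 (standard error 0.0851, edgeR FDR = 0.664), with a 95% interval from -0.13 to 0.23, and it ran from 0.000312 without DMSO replicate 1 to 0.11 without DMSO replicate 2. Dtx2 (ENSMUSG00000004947, chromosome 5 from 135994800 to 136032872) had 6.81 and 6.49 CPM with DMSO and 7.78 and 7.35 CPM with GSI. Both GSI libraries of Dtx2 lay above both DMSO libraries, and the replicates were close, 4.87% apart with DMSO and 5.65% with GSI. The log2 fold change of 0.19 (standard error 0.111, edgeR FDR = 0.185) did not pass the test, and its 95% interval ran from -0.04 to 0.42. Dtx2 rested on 293 to 376 counts per library, so that counting error alone was 5.16% to 5.84% of a library's value. Per length, Dtx4 stood 3.77 and 4.27 times above Dtx2 with DMSO and 3.65 and 3.67 times above it with GSI.

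Numb (ENSMUSG00000021224, chromosome 12 from 83794034 to 83921934) had 71.6 and 65.6 CPM with DMSO and 75.7 and 69.2 CPM with GSI. The groups overlapped, and in each of them replicate 1 was the higher. For Numb the log2 fold change came to 0.08 (standard error 0.0755, edgeR FDR = 0.431), with a 95% interval from -0.08 to 0.24. It was 0.01 without DMSO replicate 2 or GSI replicate 1 and 0.14 without DMSO replicate 1 or GSI replicate 2. Counts are summed over the 12 annotated transcripts of Numb, so isoforms, which are known to differ in their effect on proliferation, could not be told apart.

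Itch (ENSMUSG00000027598), on chromosome 2 from 155133509 to 155226855, encodes a HECT-type ubiquitin ligase of the NEDD4 family that binds NUMB and ubiquitinates Notch, and that also targets JUNB. It had 77.7 and 67.2 CPM with DMSO (72.5 ± 7.45 CPM, SD, n = 2) and 59.0 and 57.4 CPM with GSI (58.2 ± 1.11 CPM, SD, n = 2). All DMSO libraries lay above all GSI libraries, with DMSO replicate 1 the highest. Under GSI, Itch fell by 19.6%, which is -0.31 on the log2 scale (standard error 0.0782, edgeR quasi-likelihood FDR = 0.00300), with a 95% interval from -0.48 to -0.15. In bulk RNA, fewer cells of a kind and less RNA per cell cannot be told apart. The call depended on DMSO replicate 1. Without that library the log2 fold change was -0.21 with an edgeR FDR of 0.0980, and without each of the other libraries it was between -0.42 and -0.29 with an FDR of at most 0.00420, where the library left alone in its group was assumed to vary like the other group. Tested against a 1.2-fold change rather than against no change, Itch was not called either (edgeR glmTreat FDR = 0.320).

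Mib1 (ENSMUSG00000024294) was close to Itch and Numb in CPM, with 72.5 and 69.4 CPM with DMSO and 63.8 and 68.1 CPM with GSI. Both GSI libraries were below both DMSO libraries, by a margin of 69.4 against 68.1 CPM. The log2 fold change of -0.11 (standard error 0.0722, edgeR FDR = 0.259) did not pass the test, and its 95% interval, the narrowest of the 10, ran from -0.26 to 0.05. With single libraries left out, the value lay between -0.15 (without GSI replicate 2) and -0.06 (without GSI replicate 1).

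Fbxw7 (ENSMUSG00000028086, chromosome 3 from 84815268 to 84979198), whose product also directs MYC and cyclin E to degradation, had 26.8 and 27.6 CPM with DMSO and 31.5 and 27.1 CPM with GSI. GSI replicate 2 lay between the DMSO libraries and GSI replicate 1 above both. The log2 fold change was 0.11 (standard error 0.0849, edgeR FDR = 0.336), with a 95% interval from -0.07 to 0.28. As with Lfng, the difference was lost without GSI replicate 1, with a log2 fold change of -0.01.

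**Figure D3:**
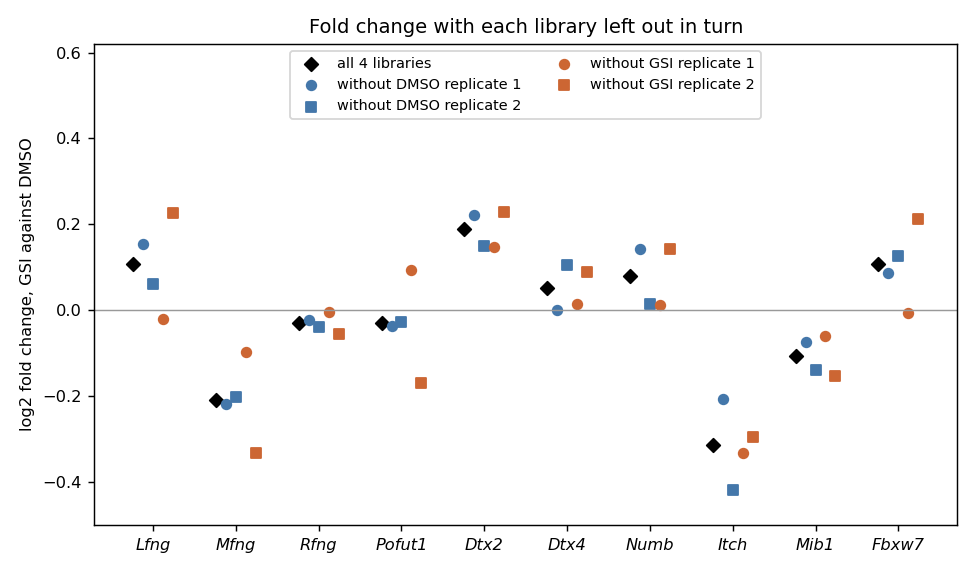
Log2 fold change of each gene from all 4 libraries (black) and with each library left out in turn (blue, a DMSO library; orange, a GSI library; circle, replicate 1; square, replicate 2). Itch stays below 0 throughout, from -0.42 to -0.21, while Lfng, Pofut1 and Fbxw7 cross 0 when GSI replicate 1 is left out.

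The spread between the GSI replicates was uneven over the 10 genes. For Lfng, Mfng, Pofut1 and Fbxw7 the GSI libraries differed by 15.0% to 18.2% of their mean, and for the other 6 genes by 2.70% to 8.92%. GSI replicate 1 was the higher for Lfng and Fbxw7 and the lower for Mfng and Pofut1. Between the DMSO replicates Itch had the widest gap, 14.5%, and the other 9 genes differed by 0.813% to 8.73%. For Lfng, counting error had an SD of 1.38% to 1.55% of the value of a library, well below its gap of 17.1% with GSI. For Itch it was 1.62% to 1.88%, well below the gap of 14.5% with DMSO but near that of 2.70% with GSI.

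For Itch, the runs of DMSO replicate 1 ranged from 75.9 to 81.5 CPM and those of DMSO replicate 2 from 66.6 to 68.5 CPM, without overlap. The runs of the GSI replicates ranged from 57.0 to 60.2 CPM and from 53.1 to 60.9 CPM. For Lfng, the runs of GSI replicate 1, from 106 to 112 CPM, all lay above those of GSI replicate 2, from 85.4 to 96.5 CPM. For Dtx2 the runs of a library spread more, from 5.01 to 7.83 CPM within DMSO replicate 1. Over the 40 combinations of gene and library, the chi-square statistic of the 4 runs per degree of freedom averaged 1.04, so runs of a library differed by about their sampling noise. Between replicates, the runs formed separate ranges for Itch and Numb with DMSO and for Lfng, Mfng, Pofut1, Numb and Mib1 with GSI, and overlapped in all other cases. Counting error and these statistics leave out copies made by PCR, which were not marked.

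**Figure D4:**
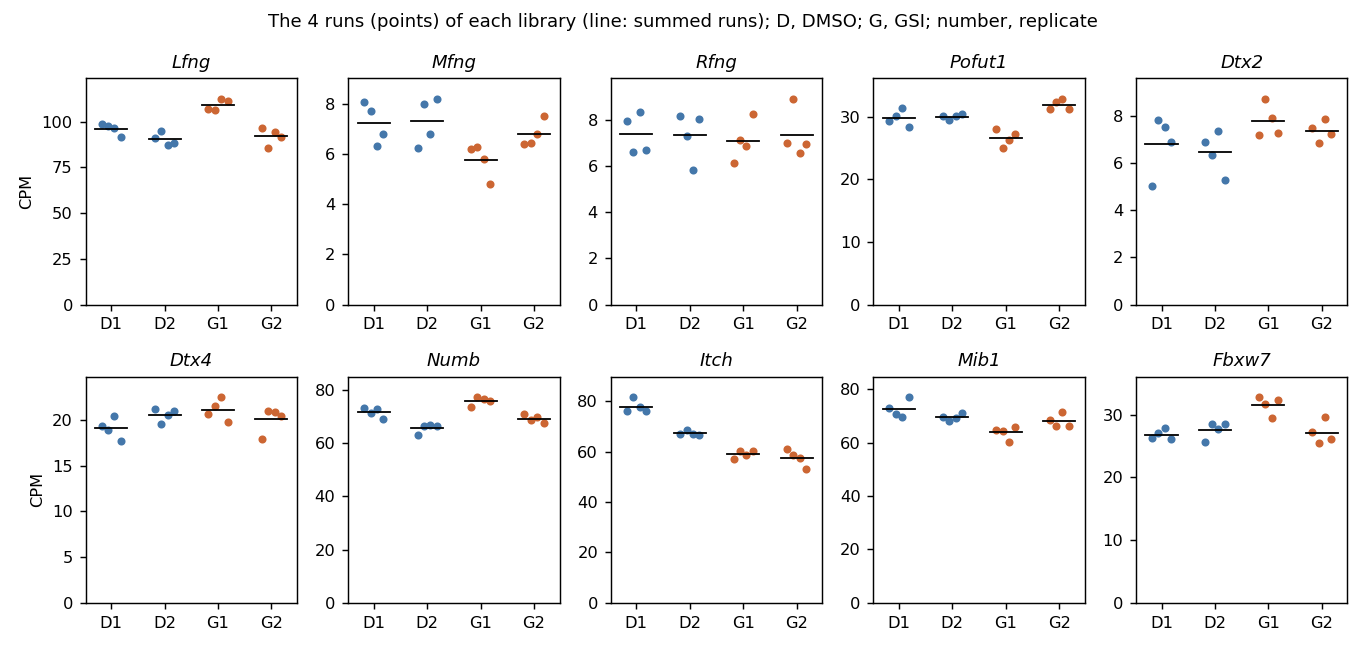
CPM of each gene in the 4 runs (points) of DMSO replicates 1 and 2 (D1, D2) and GSI replicates 1 and 2 (G1, G2), with the summed library as a black line and each axis starting at 0. For Itch the D1 and D2 runs form separate groups, at 75.9 to 81.5 and 66.6 to 68.5 CPM.

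Ordered by CPM per kilobase of exon with DMSO, the levels were 37.3 ± 1.65 for Lfng, 17.5 ± 1.08 for Numb, 7.46 ± 0.768 for Itch, 6.49 ± 0.202 for Mib1, 3.86 ± 0.0777 for Fbxw7, 3.80 ± 0.198 for Dtx4, 3.02 ± 0.0173 for Pofut1, 2.96 ± 0.0233 for Rfng, 2.56 ± 0.0215 for Mfng and 0.945 ± 0.0326 for Dtx2 (SD, n = 2 throughout). Over all 4 libraries the ranges of Itch and Mib1 overlapped, as did those of Fbxw7 and Dtx4 and those of Pofut1 and Rfng. The other neighbours in that order did not overlap. With GSI the order was the same except that Mib1, at 6.03 ± 0.276, and Itch, at 6.00 ± 0.114 (SD, n = 2), changed places, within their spread. The lengths count every annotated exon of GENCODE M21, from 2489 bases for Rfng to 10937 for Mib1, so genes with long exons that are seldom used are understated on this scale.

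In GENCODE M21, 9 of the 10 genes share no exon base with a gene on the other strand, and Numb shares 166 of its 3917 exon bases, 4.24%, with Gm46367, which has no row in the count table. None of the 10 shares exon bases with another gene on its own strand.

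Among other genes of the pathway, 7 lists written by role held 74 genes beside the 10, of which 58 passed the filter. At an FDR under 0.05 in edgeR's quasi-likelihood test, 26 of the 58 fell and 5 rose, with a median log2 fold change of -0.15. That is 53.4% called, against 40.8% of all tested genes (21.9% lower and 19.0% higher), and the lists below are to be read against the same shares. In the list of further glycosylation enzymes, 5 of 10 tested genes fell and 1 rose. The largest changes were those of B4galt1, a galactosyltransferase that extends the Fringe product, at -0.49, of Gmds, which makes the precursor of GDP-fucose, at -0.48, and of Eogt, an O-GlcNAc transferase of EGF-like repeats, at -0.46. B4galt1 had 119 and 135 CPM with DMSO and 87.8 and 92.6 CPM with GSI. Xxylt1 (-0.36), Poglut1 (-0.21) and Tsta3 (0.33), which completes GDP-fucose synthesis, make up the other calls and are named after their values were seen.

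Among ubiquitin ligases and endocytic factors, 4 of 15 tested genes fell and 1 rose, or 33.3% called, below the share over all genes. Neurl3, a Neuralized family gene, fell from 315 and 310 CPM to 217 and 224 CPM, a log2 fold change of -0.51 (standard error 0.0690, edgeR FDR = 6.40e-06). Wwp1, like Itch a member of the NEDD4 family, fell from 135 and 117 CPM to 91.8 and 90.1 CPM, a log2 fold change of -0.47 (standard error 0.0760, edgeR FDR = 5.04e-05). As for Itch, DMSO replicate 1 was the highest of its libraries. Mib2, the paralog of Mib1, rose from 27.2 ± 1.72 CPM to 34.6 ± 0.707 CPM (SD, n = 2), or by 0.35 on the log2 scale (standard error 0.0792, edgeR FDR = 0.00154), and whether it differed from Mib1 in response was not tested. Cbl (-0.32) and Ap2a2 (-0.23) were the other genes that fell. The Itch relatives Wwp2, at 0.01, and Nedd4l, at -0.19, were not called, nor were the ITCH adaptors Ndfip1, at -0.12, and Ndfip2, at 0.16, all chosen here after their values were seen. Nedd4 and Dtx1 did not pass the filter, with 32 and 2 counts over all 4 libraries.

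Of 7 genes that work with or against FBXW7, which are subunits of its SCF ubiquitin ligase complex, kinases and a cyclin that phosphorylate the Notch domain, and the deubiquitinase Usp28, 1 fell and 1 rose, or 28.6% called, also below that share. Cdk19, a kinase of the Mediator complex, fell from 56.3 and 53.8 CPM to 30.4 and 33.3 CPM, a log2 fold change of -0.79 (standard error 0.0768, edgeR FDR = 7.62e-08). Rbx1, the RING subunit of the complex, rose from 69.1 and 64.9 CPM to 96.6 and 94.0 CPM, a log2 fold change of 0.51 (standard error 0.0712, edgeR FDR = 8.60e-06). The 5 others, Skp1a, Cul1, Ccnc, Cdk8 and Usp28, were not called.

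All 5 receptors and ligands that passed the filter fell, with log2 fold changes of -1.99 for Notch4, -1.74 for Jag2, -0.74 for Jag1, -0.64 for Notch1 and -0.41 for Notch2. Notch4 rested on few counts, 60 and 87 with DMSO and 21 and 15 with GSI (standard error 0.279). Jag2 had 94 and 147 counts with DMSO and 36 and 34 with GSI (standard error 0.216). Dll4 did not pass the filter, with 30 counts over the 4 libraries. Of the 9 genes of receptor cleavage, 2 fell, Adam10 (-0.66) and Aph1b (-0.35), and 2 rose, Aph1c (0.44) and Psen2 (0.43). Of 12 genes of the nuclear complex, 9 fell. They include the coactivators Maml3 (-1.09, on 25 to 74 counts per library) and Maml1 (-0.38) and the corepressors Ncor1 (-0.34) and Spen (-0.32). Rbpj itself was at 0.01. The list of 9 Notch target genes could not be tested, because none of its genes passed the filter. Hes1 counts were 5 and 2 under DMSO against 1 and 5 under GSI, and Nrarp counts were 1 and 2 in either group. At this depth, 3 counts correspond to 0.0527 to 0.0703 CPM, and a fall or a small rise in these genes was not detectable. By qPCR, the paper reports a significant reduction of Hes1 with GSI, and it found no cleaved Notch1 with GSI.

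**Figure D5:**
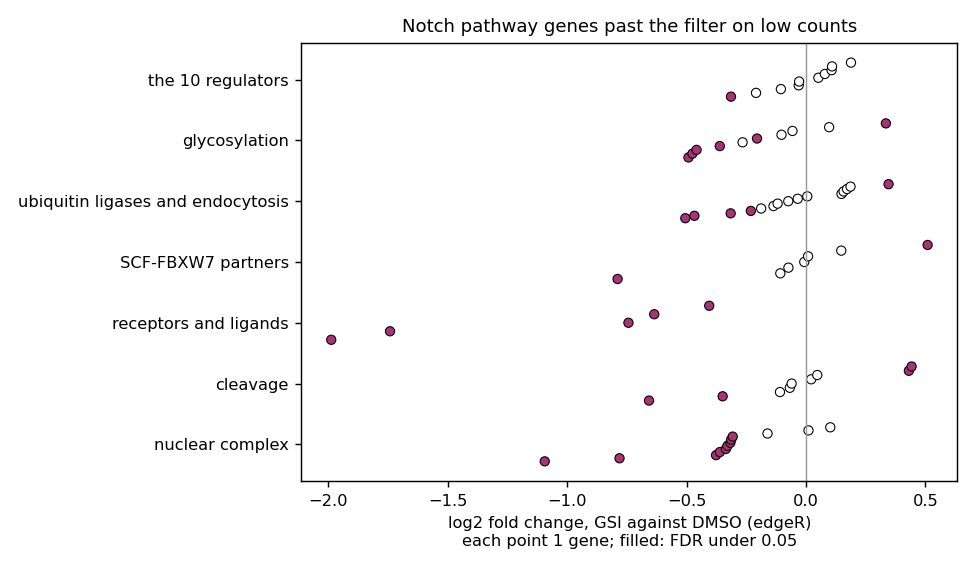
Log2 fold change of GSI against DMSO for the 10 genes (top row) and for the genes of 6 pathway lists that passed the filter, each point 1 gene, filled where the edgeR FDR was under 0.05. The 10 genes lie between -0.31 and 0.19 with Itch alone filled. The receptors and ligands reach -1.99, the value of Notch4 on 15 to 87 counts per library.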

How the data were processed

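Poly(A) RNA of BMMs was made into strand-specific libraries, and the authors deposited raw counts per gene for 16 columns, 4 for each of 4 libraries and taken here as runs, without normalization. Per the paper's methods, reads were trimmed with Trimmomatic, aligned to mm10 (GRCm38) with STAR and counted with HTSeq. The submitters' processing notes add STAR 2.5.0a, bcl2fastq and Picard and name mm9 beside mm10. The strand setting of the counting is not given in the sources used here. All 16 columns were used.

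Runs were summed by replicate. Genes passing filterByExpr were tested with edgeR 4.0.16 in R 4.3.3 (TMM, glmQLFit, glmQLFTest, group as the only factor, Benjamini-Hochberg adjustment). The standard error is the log2 fold change divided by the square root of F, and intervals use the t distribution at the total degrees of freedom. Each SD is taken from only 2 libraries. Positions and exon lengths came from GENCODE M21 and promoter windows from RefSeq (GRCm38.p6). The scripts were tested on simulated data. The genes named were the 10 regulators and, from each pathway list, the 3 largest changes with an FDR under 0.05, except that 1 gene of the nuclear complex is not reported here, and all other genes of the lists named in the text were chosen after their values were seen. The 10 genes and the lists were chosen with earlier results of these data known. As alternatives, the fit was repeated without each library in turn, with a replicate block, with RLE factors, without any factors, without the filter or requiring 10 counts in every library, with the likelihood ratio test, with glmTreat at 1.2-fold and with DESeq2 1.42.0.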

Additional observations from a re-analysis of the deposited data

How the results depend on the processing

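Over 12 alternatives, 114 log2 fold changes of the 10 genes kept their direction and their side of the threshold, 3 turned, 1 gained a call and 2 lost it. The count of genes that fell, 1, became 0 under glmTreat against 1.2-fold and 0 without DMSO replicate 1 (range 0 to 1 with each library left out), since Itch was then no longer called. The count that rose, 0, became 1 without GSI replicate 2, which was Lfng (range 0 to 1). Without GSI replicate 1 the log2 fold change turned to -0.0203 for Lfng (range to 0.23 with each library left out), to 0.0941 for Pofut1 (range from -0.17) and to -0.00573 for Fbxw7 (range to 0.21). The cause was not tested. Under glmTreat, which asks for a larger change by construction, the other pathway genes that fell went from 26 to 13 and those that rose from 5 to 3, and the calls over all genes from 5392 to 2446. The replicate numbers are shared between the groups, but nothing in the labels pairs them, and the deviations of replicate 1 from the group means correlated at 0.15 between DMSO and GSI over 13211 genes. With the replicate block, 1 of the 10 genes fell, 0 rose, and 28 and 6 of the other pathway genes fell and rose. The block changed no call among the 10 genes. Itch had an FDR of 1.91e-05 to 0.320 over its alternatives and was called in 10 of 12. Mfng, Rfng and Dtx2, on 279 to 416 counts per library, are limited by depth as well as by 2 replicates.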
